A study of Mus musculus with 48 samples.

Results

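The interferon response and antigen presentation genes described here are 47 mouse genes, chosen by symbol from what is known of the pathway. All 47 were listed in both expression tables, among the 16952 genes that the tables share. By role they were 4 transcription factors (Irf1, Irf7, Irf9 and Stat2), 4 sensors of foreign nucleic acid (Ddx58, Ifih1, Dhx58 and Zbp1), 16 antiviral effectors (Ifit1, Ifit2, Ifit3, Rsad2, Oas2, Oasl1, Oasl2, Bst2, Eif2ak2, Adar, Ifi35, Ifi44, Xaf1, Rtp4, Samd9l and Lgals3bp) and 7 ubiquitin-like and ADP-ribose regulators (Isg15, Usp18, Trim21, Trim25, Parp9, Parp14 and Dtx3l). The others were 3 interferon-induced GTPases (Gbp2, Igtp and Irgm1), 5 genes of MHC class I and its regulator (B2m, H2-D1, H2-K1, H2-T23 and Nlrc5), 3 peptide loading genes (Tap1, Tap2 and Tapbp) and 5 immunoproteasome genes (Psmb8, Psmb9, Psmb10, Psme1 and Psme2).

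RNA of the cerebral cortex was sequenced in 48 mice, as 12 groups of 4 mice by sex, genotype and exposure. C57BL/6J mice (B6), aged 4 months in the labels, inhaled either nPM, a nano-sized fraction of urban particulate matter, or filtered air for 5 h per day, 3 days per week, over 8 weeks. ApoE-TR mice, aged 6 months, carry human APOE3 or APOE4 in place of mouse Apoe by targeted replacement, and were exposed to the same schedule over 15 weeks. The B6 and APOE-TR experiments were run apart, with different nPM batches, and were deposited as separate tables, so that genotype against B6 cannot be told apart from age, exposure length, batch and table. Mice are named here by the animal number of their label, and each is its own sample.

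The deposited values are CPM, read counts scaled to a common library total. Depth, estimated from the lowest value of each mouse, was 17.8 M to 31.3 M reads in the 32 APOE-TR mice and 2.08 M to 24.4 M reads in the 16 B6 mice. Mouse Apoe was at 164 to 503 CPM in B6 mice and 8.81 to 30.7 CPM in APOE-TR mice, and Xist was at 90.3 to 910 CPM in females and at 0.0313 to 0.397 CPM in males over both tables, as labelled. In the 4 APOE3 females on filtered air long transcripts were underrepresented, with a slope of level on log2 transcript length between -0.59 and -0.12 against -0.239 to 0.166 in the other 28 APOE-TR mice, so that the ranges overlapped.

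Type I interferons bind a receptor whose kinases activate a complex that holds Stat2 and Irf9, which enters the nucleus and binds the interferon-stimulated response element (ISRE) in the promoters of its targets. Interferon gamma acts through a gamma-activated site (GAS) in promoters, and through Irf1 and Nlrc5 it raises MHC class I, the surface molecules that present peptides cut by the immunoproteasome and carried by Tap1 and Tap2. In brain, microglia, endothelial cells and astrocytes all express parts of this program, and interferon-responsive microglia are known from ageing and from amyloid models.

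The element that these genes are known for was searched in their promoters, from 250 bases before to 50 bases after the transcription start, as RefSeq gives them for build GRCm38.p6. A promoter was held for 38 of the 47 genes. The ISRE core, written GAAANNGAAA or TTTCNNTTTC on the opposite strand, occurred in 1 or more windows of 16 of the 38 genes (42.1%), against 3.99% of all 27025 genes with a promoter, and in 16 of their 45 windows (35.6%), against 3.44% of all 32851 windows. It occurred in 3 of 3 GTPases, 2 of 2 sensors with a promoter, 5 of 14 effectors and 0 of 2 peptide loading genes. The GAS core TTCNNNGAA, which reads the same on both strands, occurred in 8 of the 38 genes (21.1%) against 9.55% of all genes, and in 17.8% of their windows against 8.3% of all windows. The stretches below are those of 6 genes, chosen by name, that had a match and whose values are given in full further on. Stat2, Bst2, Eif2ak2 and Igtp, also given in full, had a match that is not printed. Oasl2, H2-K1, H2-D1, Irf1, Irf7, Irf9, Tap1 and Psmb8, also given in full, had no ISRE match, and no promoter was held for Nlrc5 and Parp9. Each stretch is 80 bases long, 5′ to 3′ on the strand of the gene, with the ISRE core in capitals. In Isg15 3 matches overlap and run into each other, whereas in Ifit1 and Ifit3 a pair of matches lies apart. A match describes these letters and is not a measured binding site.
Isg15 (chr4:156200846-156200925, minus strand): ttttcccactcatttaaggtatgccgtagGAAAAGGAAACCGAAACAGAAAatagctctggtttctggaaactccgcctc
Ifit1 (chr19:34640759-34640838, plus strand): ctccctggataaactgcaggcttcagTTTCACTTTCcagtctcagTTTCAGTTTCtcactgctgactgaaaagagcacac
Ifit3 (chr19:34583355-34583434, plus strand): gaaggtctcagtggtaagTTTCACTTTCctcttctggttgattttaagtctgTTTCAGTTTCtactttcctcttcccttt
Rsad2 (chr12:26456528-26456607, minus strand): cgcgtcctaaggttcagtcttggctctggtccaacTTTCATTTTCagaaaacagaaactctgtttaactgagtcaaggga
Gbp2 (chr3:142620569-142620648, plus strand): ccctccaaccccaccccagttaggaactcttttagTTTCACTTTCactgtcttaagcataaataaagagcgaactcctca
B2m (chr2:122147513-122147592, plus strand): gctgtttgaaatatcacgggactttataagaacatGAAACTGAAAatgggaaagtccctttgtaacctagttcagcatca

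Most of these genes were weakly expressed in cortex, with 10 of 47 above 10 CPM and 8 below 1 CPM on average in APOE-TR mice. Per length, B2m, the light chain shared by all MHC class I molecules, was the highest of the 47 at 69.1 CPM per kb in APOE-TR mice. Adar, an RNA-editing enzyme that has an interferon-independent promoter as well, followed at 23.6 CPM per kb, then the class I heavy chain H2-D1 at 11.9, the immunoproteasome subunit Psmb10 at 11.5 and the heavy chain H2-K1 at 10.5 CPM per kb. The heavy chains are near-identical copies in part of their length, and since the authors kept reads that map to 1 place only, their levels are uncertain. Ifit3, a cytoplasmic inhibitor of viral RNA, reached 6.31 CPM per kb. At the lower end were the synthetase Oas2 at 0.0907 CPM per kb, Oasl1 at 0.0817, the sensor Zbp1 at 0.0807, and Nlrc5, the transactivator of MHC class I, at 0.0699. Of the transcription factors, Stat2 was at 17.5 CPM on average in APOE-TR mice, Irf9 at 6.79, Irf1 at 4.10 and Irf7 at 1.16 CPM, and Irf7 ranged from 0.327 to 3.02 CPM over single mice.

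In APOE-TR mice 44 of the 47 genes had reads in every mouse, while Ifi44, Oasl1 and Zbp1 had none in 1 mouse each. In B6 mice 28 of the 47 had none in 1 or more mice, among them Oasl1 and Zbp1 in 13 mice, Oas2 in 10 and Isg15 in 8 of 16. Missing reads did not simply follow depth. Ifit2 had none in B6 male mouse 0 on filtered air at 13.3 M reads, but stood at 7.46 CPM in mouse 6 of that group at 2.08 M. The cause of the missing reads was not tested. A gene entered a fit where its mean was at least 0.5 CPM, which 38 genes did in all 14 comparisons and 45 in at least 1. Zbp1 and Oasl1 entered none. The Dtx3l and Parp9 genes overlap on opposite strands, and whether reads were assigned by strand is not given in the sources used here, so their reads may be shared in part.

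**Figure D1:**
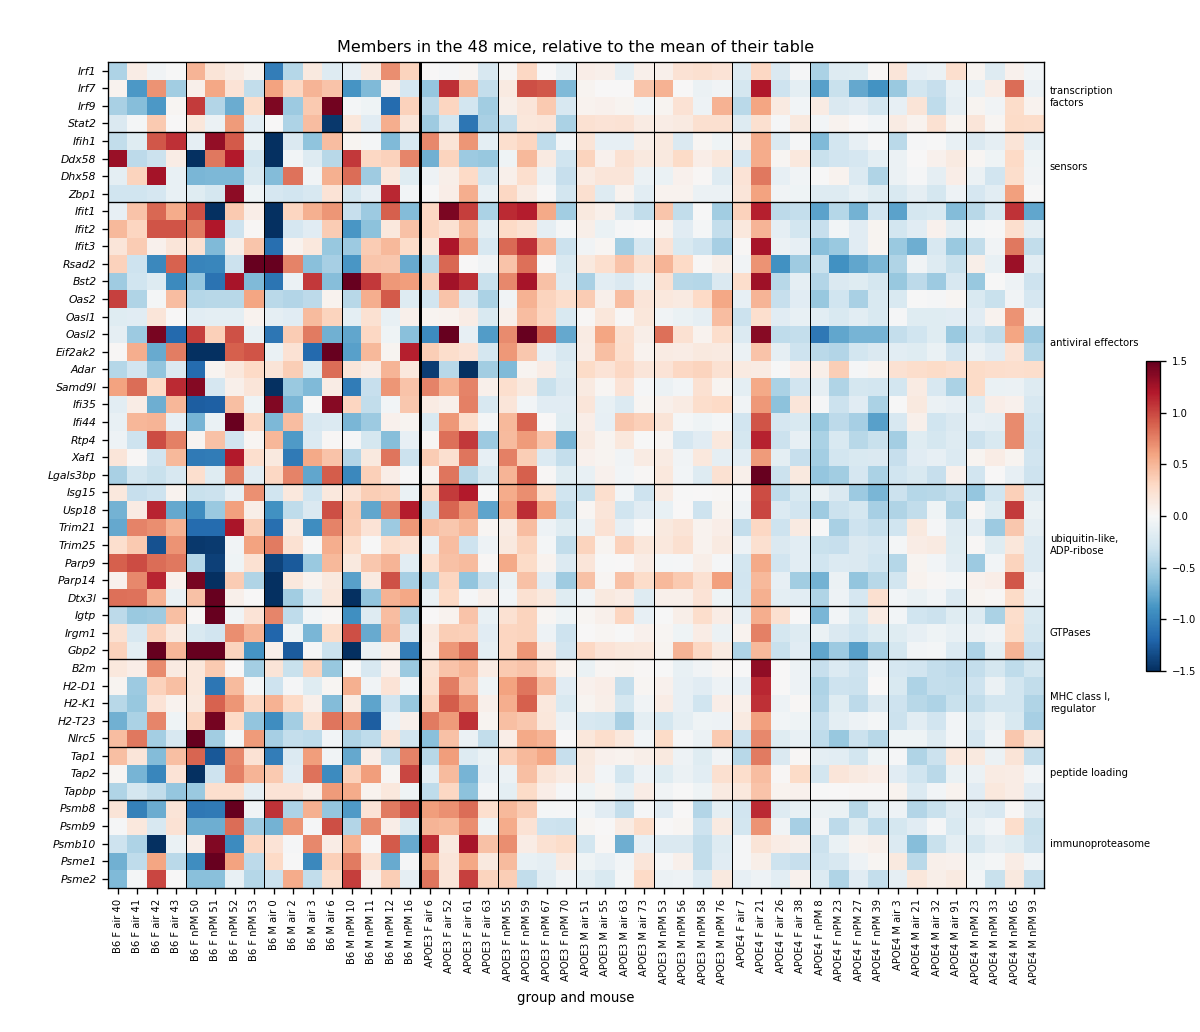
Levels of the 47 genes in the 48 mice, as log2 of CPM + 0.5 relative to the mean of each table, with colours limited to 1.5 on either side. Rows are genes ordered by role and columns are mice ordered by group, with black lines between roles and groups. The column of APOE4 female mouse 21 on filtered air is red over most rows.

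Differences are given on the scale of log2 of CPM + 0.5, which understates the change of genes near or below 0.5 CPM. Over all 48 mice, with terms for sex and genotype, no gene of the 42 tested passed a threshold for nPM. At 5% FDR stood 0 genes and 0 at the study's threshold of an unadjusted p under 0.005, against 0% and 1.29% of all 14237 genes tested (limma). At an unadjusted p under 0.05 stood only Dhx58, a regulator of the RNA sensors, with a log2 difference of -0.26 (limma, adjusted p = 0.348), against 13% of all genes. Of all genes 48.4% were lower with nPM, and of the 42 genes 18 were higher and 24 lower, with a median of -0.02 on the log2 scale, beside 0.01 for all genes, and ranged from -0.26 to 0.19. In the 32 APOE-TR mice fitted alone the counts at both thresholds were 0 as well, against 0% and 0.677% of all genes, and edgeR's quasi-likelihood test on recovered reads of those mice called 0 at 5% FDR.

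Within single strata of 8 mice nPM called 0 of these genes at either threshold, in any of the 6 strata (limma). At 5% FDR 0.00563% of all genes passed in B6 females and 0% in the other 5 strata. The shares of all genes under an unadjusted p of 0.005 were 1.05% in B6 females, 0.252% in B6 males, 0.662% in APOE3 females, 0.0952% in APOE3 males, 0.217% in APOE4 females and 0.15% in APOE4 males. In B6 females 2 of 40 genes were under an unadjusted p of 0.05, against 9.14% of all genes, and in B6 males 3 of 39 (Ddx58 and Bst2, higher, and Irf7, lower), against 4.5%. The corresponding counts were 3 of 44 in APOE3 females (Samd9l and Psme2, lower, and Adar, higher) against 22.2% and 0 of 45 in APOE3 males against 1.87% of all genes.

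Parp9, a partner of the ubiquitin ligase Dtx3l in the interferon response, had the smallest p in B6 females. It was measured at 2.15, 2.30, 2.04 and 1.97 CPM in B6 females on filtered air and at 0.557, 0.0383, 0.865 and 1.16 CPM in B6 females on nPM. All nPM females were below all control females, which 2.45% of all genes showed, with a log2 difference of -1.29 ± 0.45 (SE, limma, adjusted p = 0.446). In B6 males the order was the other way, with 0.0448, 0.0941, 0.470 and 1.49 CPM on filtered air and 1.08, 1.38, 1.52 and 0.774 CPM on nPM, and the groups overlapped (log2 difference 0.90 ± 0.48, limma, adjusted p = 0.993). H2-K1 in B6 females stood at 7.87, 7.07, 12.4 and 11.1 CPM on filtered air and at 11.9, 20.1, 17.1 and 13.4 CPM on nPM. These groups overlapped in mouse 42 and mouse 50 alone (log2 difference 0.68 ± 0.27, limma, adjusted p = 0.509). Irf7, the factor that amplifies interferon production, was at 1.57 to 2.03 CPM in B6 males on filtered air and at 0.404 to 1.29 CPM on nPM, without overlap, which 1.14% of all genes showed (log2 difference -0.89 ± 0.39, limma, adjusted p = 0.993).

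The direction was most uniform in APOE4 females, where 41 of 42 genes were lower with nPM, at a median of -0.31 on the log2 scale beside 0.00 for all genes, of which 49.1% were lower. At an unadjusted p under 0.05 were 7 genes (Gbp2, Oasl2, H2-K1, Irf7, Ifit1, Ddx58 and Lgals3bp), all lower, against 2.63% of all genes that were lower at that p. None passed 5% FDR, and the smallest adjusted p was 0.740 (limma). In 7 of 42 genes (16.7%) all 4 nPM mice were below all 4 control mice, against 1.76% of all genes. Gbp2, a GTPase that attacks the vacuoles of intracellular pathogens, was at 1.45, 3.22, 1.60 and 1.85 CPM on filtered air and at 1.04, 1.32, 1.01 and 1.38 CPM on nPM. H2-K1 was at 17.1, 35.4, 15.4 and 16.5 CPM on filtered air and at 11.9, 14.3, 12.3 and 13.9 CPM on nPM. In both genes the groups did not overlap, and the high control value was that of mouse 21 (log2 differences -0.54 ± 0.19 for Gbp2 and -0.58 ± 0.22 for H2-K1, SE).

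Mouse 21 of the APOE4 females on filtered air was the highest of its group in 42 of the 44 genes measured above the filter there (95.5%), against 28.6% of all genes. Its microglia markers, 8 genes, summed to 496 CPM against 259 to 299 CPM in the other 3 mice of the group. With nPM in APOE4 females all 8 microglia markers were lower, 0 of them at an unadjusted p under 0.05, with sums of 250 to 306 CPM. Endothelial markers were lower in 6 of 7 cases, 3 at that p, with sums of 38.3 to 62.9 CPM on nPM against 53 to 75.7 CPM on filtered air. The 5 choroid plexus markers were all lower, 2 at that p, with sums of 19.3 to 41.1 CPM against 37.4 to 1172 CPM. The part of these markers in the result was not tested. Without mouse 21 the nPM comparison in APOE4 females had 33 of 41 genes lower and a median of -0.14, with 1 gene at an unadjusted p under 0.005. The share of all genes in that refit is not given here. With the length slope of each mouse as a covariate, 16 of 42 genes were lower and the median was 0.02, a sign opposite to that of the fit without it. The count of lower genes in this stratum therefore changed with a single mouse and with the length term.

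In APOE4 males 35 of 43 genes were higher with nPM, against 50.8% of all genes, at a median of 0.10 on the log2 scale, with 3 at an unadjusted p under 0.05 (Tap2, Irf7 and Ifit3) against 4.02% of all genes, and 0 at 5% FDR (limma, smallest adjusted p = 0.948). Irf7 was at 0.540, 0.767, 0.705 and 0.920 CPM on filtered air and at 0.921, 1.16, 2.25 and 0.937 CPM on nPM, where the highest control (0.920 CPM) and the lowest nPM mouse (0.921 CPM) all but touched. Irf7 and Tap2 were the 2 genes of 43 (4.65%) without overlap, against 1.19% of all genes. The high value belonged to mouse 65, which was the highest of its group in 31 of 44 genes (70.5%) against 22.9% of all genes. Its microglia marker sum of 267 CPM lay within the range of 244 to 271 CPM of its group. Without mouse 65 the count was 25 higher and 17 lower of 42, and the median 0.01.

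**Figure D2:**
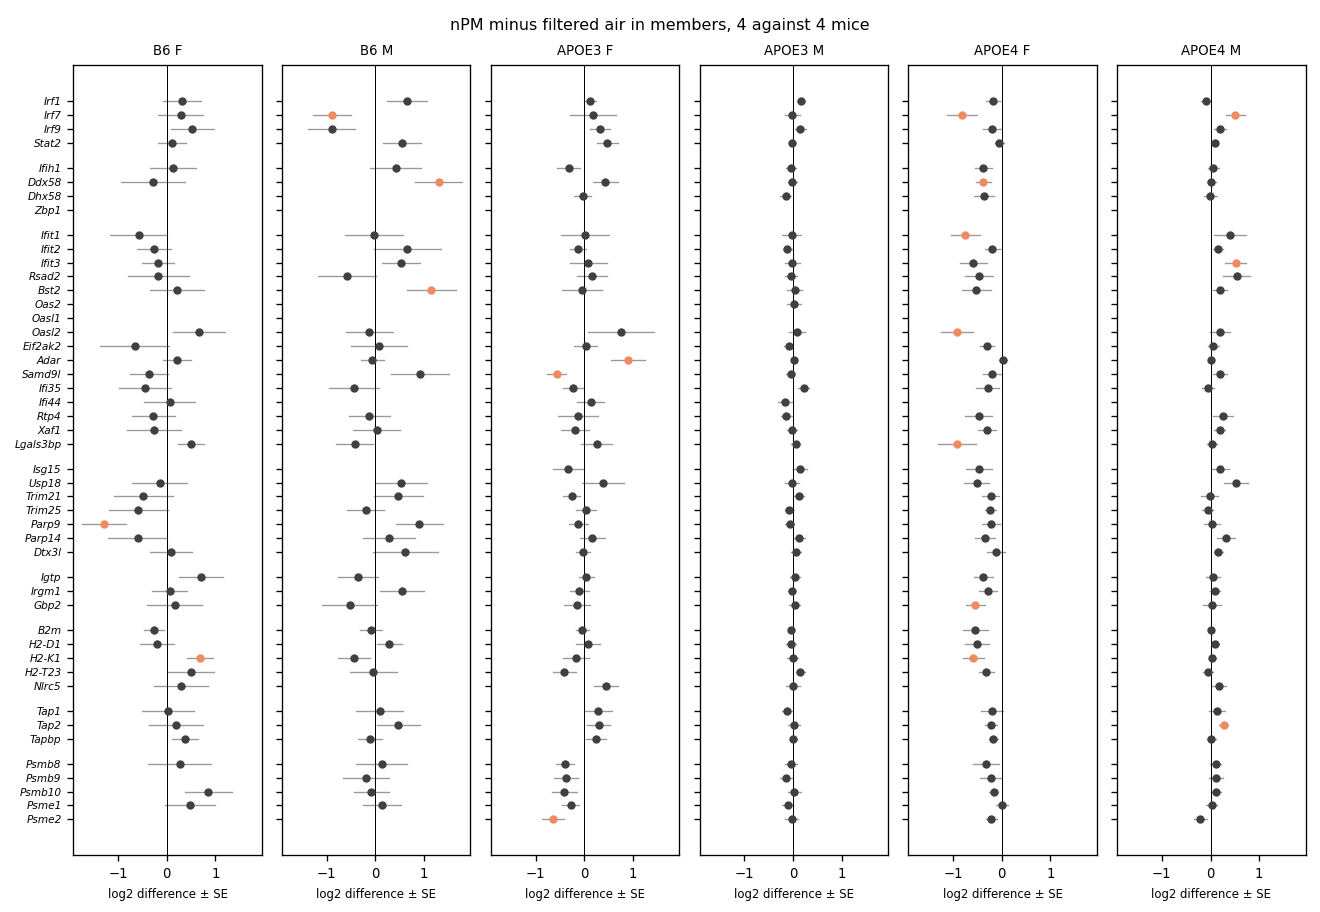
Differences between nPM and filtered air (log2 of CPM + 0.5, with standard errors) for the tested genes in each of the 6 strata of 8 mice, with 1 panel per stratum and genes ordered by role. Orange points have an unadjusted p under 0.05, dark red points under 0.005 and grey points neither. Points of APOE4 females lie left of 0 in 41 of 42 genes, and no point is dark red.

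The APOE allele was compared next. Over all 48 mice 38 of 42 genes were lower in APOE4 than in APOE3 mice, with a median of -0.23 on the log2 scale beside 0.00 for all genes, of which 49.3% were lower. The 4 higher genes were Adar, Stat2, Tapbp and Tap2. None passed 5% FDR, against 0.464% of all genes, and 1 passed the unadjusted threshold of 0.005, against 1.85% of all genes (0.892% of all genes were lower at that threshold). That gene was Isg15, the ubiquitin-like modifier that marks proteins made during the response, at -0.43 ± 0.14 (SE, limma, adjusted p = 0.252). At an unadjusted p under 0.05 were 7 genes against 12.8% of all genes, namely Isg15, B2m, H2-D1, H2-K1, Oasl2 and Gbp2, all lower, and Adar, which was higher. Without APOE4 female mouse 21 the count was 15, with 5 at the 0.005 threshold and 1 at 5% FDR (smallest adjusted p = 0.00875, limma). For this omission and those that follow, the share of all genes is not given here. The count at 0.005 was 2 without B6 female mouse 50 or APOE3 female mouse 67 or 70, each on nPM. It was 0 without APOE3 mouse 55 or APOE4 mouse 21, 32 or 91 of the males on filtered air, APOE4 mouse 26 or 38 or APOE3 mouse 52 or 61 of the females on filtered air, APOE4 male mouse 23 on nPM, and APOE3 mouse 55 or 59 or APOE4 mouse 23, 27 or 39 of the females on nPM.

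Since B6 mice carry no human allele, the 32 APOE-TR mice were also fitted alone. There 39 of 43 genes were lower in APOE4 mice, and 4 of the 43 fell at 5% FDR, which 6.58% of all genes passed in either direction. This share is not far from the background, so the count is not by itself a result about these genes. The 4 were Gbp2 at -0.51 (adjusted p = 0.00609), Eif2ak2, the RNA-activated kinase that halts translation, at -0.33 (adjusted p = 0.0170), H2-K1 at -0.37 (adjusted p = 0.0367) and Parp9 at -0.28 (adjusted p = 0.0461, limma). At the unadjusted threshold of 0.005 the count was 8 of 43, against 8.85% of all genes. Leaving out APOE4 female mouse 21 raised the count at 5% FDR to 15, against 5.61% of all genes, and leaving out the 4 APOE3 females on filtered air lowered it to 2, Gbp2 and Eif2ak2, against 2.45%. With the length slope as a covariate it was 2 as well, Gbp2 and the ubiquitin ligase Trim25, against 3.04%, and edgeR's quasi-likelihood test called 3, Gbp2, Eif2ak2 and H2-K1, against 6.92%, a share near the background.

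The 16 APOE-TR males, whose length slopes lay between 0.0582 and 0.166, had 4 genes at 5% FDR, against 2.14% of all genes. All 4 fell in APOE4, namely B2m by 0.30 on the log2 scale (adjusted p = 1.56e-05), H2-K1 by 0.31 (adjusted p = 0.00938), Eif2ak2 by 0.32 (adjusted p = 0.0348) and H2-D1 by 0.25 (adjusted p = 0.0491, limma). Among the 16 females 10 genes passed 5% FDR, against 28.6% of all genes, a share near the background.

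B2m was the only one of the 43 genes at 5% FDR in either stratum of males. In males on filtered air it was measured at 53.7, 58.6, 59.4 and 58 CPM with APOE3 and at 48.2, 47.1, 44.9 and 43.5 CPM with APOE4. In males on nPM it was at 57.0, 53.1, 55.4 and 58.5 CPM with APOE3 and at 44.7, 47.7, 43.9 and 47.4 CPM with APOE4. The alleles were separate in both exposures, and within each allele the exposures overlapped. B2m fell by 0.32 ± 0.06 on the log2 scale on filtered air (SE, limma, adjusted p = 0.0302) and by 0.28 ± 0.05 on nPM (adjusted p = 0.020), and each exact permutation test gave p = 0.0286, the smallest that 70 labelings of 8 mice allow. In females on nPM it was at 75.7, 77.3, 68.8 and 59.5 CPM with APOE3 and at 45.1, 49.7, 46.2 and 55.9 CPM with APOE4, again without overlap (log2 difference -0.51 ± 0.10, limma, adjusted p = 0.185). In females on filtered air the values were 77.3, 81.3, 62.9 and 67.2 CPM with APOE3 and 57.4, 145, 57.8 and 54.4 CPM with APOE4. Here mouse 21 lay above all APOE3 females while its 3 group mates lay below them, and the difference was -0.00 ± 0.30 (limma, adjusted p = 0.992).

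In order of their means, the B2m levels of the APOE-TR groups were 78.8 ± 44.4 CPM (SD) in APOE4 females on filtered air, 72.2 ± 8.58 in APOE3 females on filtered air, 70.3 ± 8.07 in APOE3 females on nPM, 57.4 ± 2.54 and 56 ± 2.31 in APOE3 males on filtered air and nPM, 49.2 ± 4.87 in APOE4 females on nPM, and 45.9 ± 2.10 and 45.9 ± 1.89 in APOE4 males on filtered air and nPM. Neighbours in this order overlapped in their ranges, apart from APOE3 females on nPM and APOE3 males on filtered air, which were separate by 59.5 against 59.4 CPM. Length slopes reached at most 0.0331 in APOE-TR females and were at least 0.0582 in males. Sex cannot be told apart from length slope in this order. In B6 mice, on the separate scale of their table, B2m ranged from 94.3 to 228 CPM and the 4 groups overlapped.

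**Figure D3:**
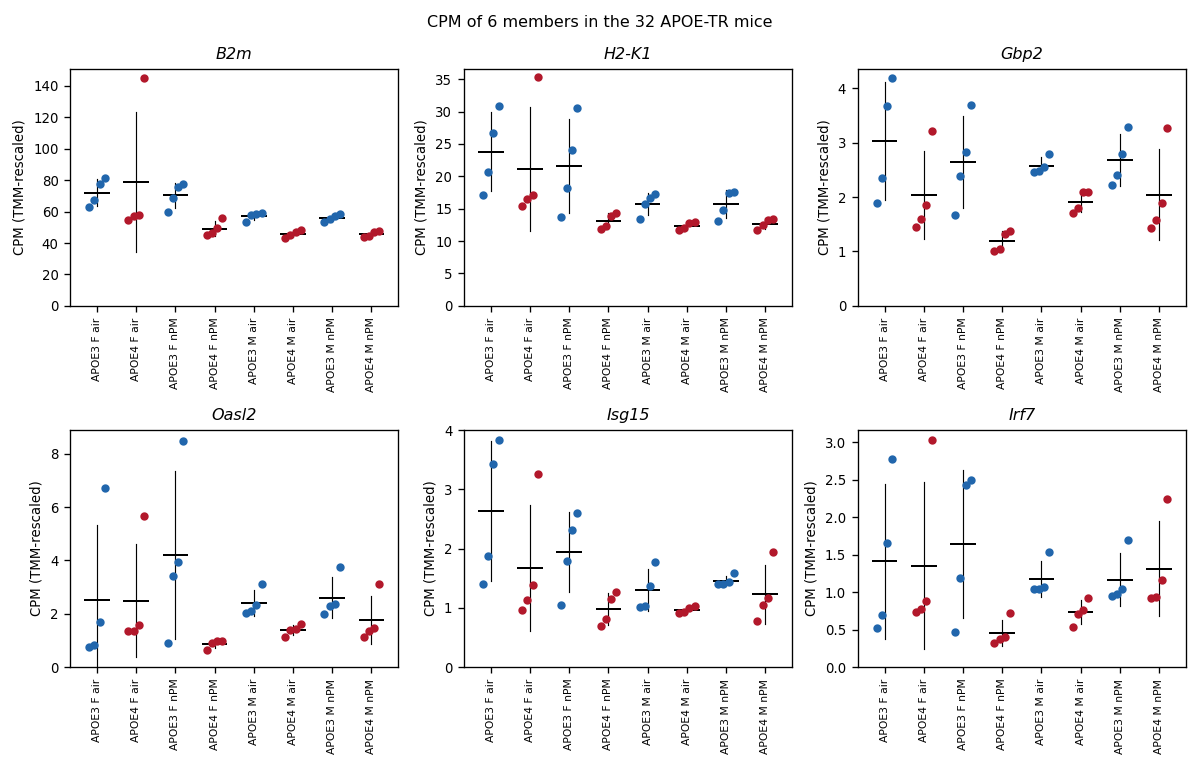
CPM of B2m, H2-K1, Gbp2, Oasl2, Isg15 and Irf7 in each of the 8 APOE-TR groups, with 1 point per mouse, APOE3 in blue and APOE4 in red, a bar at the mean and a line over 1 SD on either side. B2m of APOE4 males lies between 43.5 and 48.2 CPM and that of APOE3 males between 53.1 and 59.4 CPM, and mouse 21 is the high red point of females on filtered air.

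Among females on nPM 41 of 43 genes were lower in APOE4, at a median of -0.38 on the log2 scale beside 0.00 for all genes, of which 49.9% were lower. At the unadjusted threshold of 0.005 were 6 genes, or 14% of those tested, all lower, against 0.767% of all genes that were lower at that threshold. They were B2m, Nlrc5, Gbp2, Rsad2, H2-D1 and Lgals3bp, with adjusted p from 0.185 to 0.417 (limma), and 0 passed 5% FDR, which 0.224% of all genes did. Nlrc5 entered this fit only through its APOE3 values, as every APOE4 female was below the filter of 0.5 CPM. Its place in the counts of this comparison is therefore no support for a difference. At an unadjusted p under 0.05 stood 21 genes, all lower, against 4.7% of all genes. In 7 genes (16.3%, against 3.2% of all genes) every APOE4 female was below every APOE3 female. The length slopes of these mice did not overlap either, at -0.239 to -0.00544 with APOE3 and -0.00273 to 0.0331 with APOE4. Over 10 alternatives, the length covariate among them, the median lay between -0.49 and -0.26. With slopes that do not overlap, the covariate cannot fully separate slope from allele.

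By role, the 5 genes of MHC class I and its regulator were lower at an unadjusted p under 0.05 in 5 of 5 cases, with a median of -0.65. Nlrc5 was at 0.578, 0.984, 0.932 and 0.508 CPM with APOE3 and at 0.269, 0.179, 0.303 and 0.254 CPM with APOE4, without overlap (log2 difference -0.72 ± 0.16, SE). It passed the filter only through the APOE3 mice, so it adds no support to the count of this role. H2-D1 was at 37.0, 42.3, 33.3 and 21.4 CPM against 17.3, 19.2, 19.2 and 24.2 CPM, overlapping in APOE3 mouse 70 alone (log2 difference -0.70 ± 0.19, SE). Of the 13 effectors tested 12 were lower, 7 of them at an unadjusted p under 0.05. Rsad2, also called viperin, an enzyme that makes a chain-terminating nucleotide, was at 1.67, 2.35, 1.12 and 0.871 CPM with APOE3 and at 0.772, 0.358, 0.437 and 0.508 CPM with APOE4. These groups were separate, at a log2 difference of -0.93 ± 0.23 (SE). Oasl2, a relative of the oligoadenylate synthetases, had the largest difference of the 43, at 3.43, 8.47, 3.95 and 0.908 CPM against 0.638, 0.894, 0.975 and 0.980 CPM (log2 difference -1.5 ± 0.45, limma, adjusted p = 0.432). Its groups overlapped through APOE3 mouse 70, the lowest of its group. The GTPase Gbp2 was at 2.82, 3.69, 2.39 and 1.67 CPM against 1.04, 1.32, 1.01 and 1.38 CPM, without overlap, at -0.86 ± 0.19 on the log2 scale (SE).

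Irf7 in these females was at 1.19, 2.49, 2.42 and 0.472 CPM with APOE3 and at 0.369, 0.716, 0.404 and 0.327 CPM with APOE4 (log2 difference -1.05 ± 0.33, limma, adjusted p = 0.455). The other transcription factors moved less, Irf1 by -0.27 ± 0.13, Irf9 by -0.24 ± 0.14 and Stat2 by 0.11 ± 0.15 on the log2 scale (SE). Among effectors, Ifit1 differed by -1.14 ± 0.33, Ifit3 by -0.87 ± 0.28 and Bst2, which tethers budding virus to the cell, by -0.83 ± 0.26 on the log2 scale. Isg15 differed by -0.69 ± 0.22 and its deconjugating protease Usp18 by -0.89. Adar and Stat2 were the only genes of the 43 that were higher.

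APOE3 female mouse 70 on nPM was the lowest of its group in 33 of 45 genes, and mouse 59 the highest in 29 of 45 (64.4%, against 23.1% of all genes). Without mouse 70 there were 5 genes at 5% FDR and 17 at the unadjusted threshold of 0.005 in the allele comparison of females on nPM. Leaving out APOE3 mouse 55 or 59, or APOE4 mouse 23 or 27, left 3 at that threshold, and APOE3 mouse 67 or APOE4 mouse 8 or 39 left 4. These counts lack the share of all genes in each refit, so a gain over other genes cannot be read from them. The microglia marker sums were 250 to 338 CPM with APOE3 and 250 to 306 CPM with APOE4, and of the 8 markers 5 were lower and 0 passed an unadjusted p of 0.05. The 7 astrocyte markers were all lower, 3 of them at an unadjusted p under 0.05. So were the 7 endothelial markers, 0 of them at that p. The part of these marker sets in the result was not tested. In bulk RNA, fewer cells of a type and less RNA per cell cannot be told apart.

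Among males on filtered air 38 of 43 genes were lower in APOE4, at a median of -0.21 on the log2 scale beside 0.00 for all genes, of which 49.3% were lower. B2m passed 5% FDR, which 0.354% of all genes did in that direction. At the unadjusted threshold of 0.005 were 6 genes, all lower, against 0.987% of all genes that were lower, and at an unadjusted p under 0.05 were 16, all lower, against 3.27%. In 12 of 43 genes (27.9%) the 4 APOE4 males were all below the 4 APOE3 males, against 2.16% of all genes. The 12 were B2m, H2-K1, Nlrc5, Gbp2, Irgm1, Irf7, Psmb9 and the effectors Oasl2, Rsad2, Eif2ak2, Rtp4 and Xaf1. Nlrc5 passed the filter of 0.5 CPM here only through APOE3 males, since every APOE4 male was below it, so it adds no support to this count.

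Oasl2 in these males was at 2.11, 3.12, 2.34 and 2.04 CPM with APOE3 and at 1.38, 1.44, 1.61 and 1.13 CPM with APOE4 (log2 difference -0.61 ± 0.13, limma, adjusted p = 0.108). Rsad2 was at 1.28, 1.41, 1.66 and 1.40 CPM against 0.675, 1.04, 0.904 and 0.779 CPM (log2 difference -0.52 ± 0.12, limma, adjusted p = 0.130). Eif2ak2 was at 5.21, 6.71, 5.78 and 4.99 CPM against 4.24, 4.17, 4.43 and 3.82 CPM (log2 difference -0.40 ± 0.10, limma, adjusted p = 0.221). In each of these genes every APOE4 male was below every APOE3 male. H2-K1 was at 16.7, 17.3, 13.4 and 15.7 CPM with APOE3 and at 13.0, 12, 11.7 and 12.8 CPM with APOE4, separate by the small gap between APOE3 mouse 63 and APOE4 mouse 3 (log2 difference -0.33 ± 0.08, limma, adjusted p = 0.221). Gbp2 was at 2.80, 2.55, 2.49 and 2.46 CPM against 1.70, 2.08, 2.09 and 1.79 CPM, at -0.35 ± 0.10 on the log2 scale (SE). Irf7 was at 1.07, 1.05, 1.04 and 1.54 CPM against 0.540, 0.767, 0.705 and 0.920 CPM, at -0.44 ± 0.14 on the log2 scale (limma, adjusted p = 0.435).

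Ifit1 differed by -0.39 ± 0.16, Rtp4 by -0.37 ± 0.11, Parp14 by -0.36 ± 0.12 and Ifit3 by -0.33 ± 0.13 on the log2 scale in these males (SE). Igtp, a GTPase of the same defence against vacuolar pathogens, differed by -0.29 ± 0.11 and H2-D1 by -0.32 ± 0.10 on the log2 scale (SE). Tap1, a chain of the peptide pump, differed by -0.24 ± 0.14, the immunoproteasome subunit Psmb8 by -0.11 ± 0.12 and Stat2 by -0.08 ± 0.06. The 5 genes that were higher in APOE4 males were H2-T23, Psme2, Irf1, Adar and Ifi35, none at an unadjusted p under 0.05.

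The call of B2m in males on filtered air was lost without APOE3 mouse 55 or 73 or APOE4 mouse 21, 32 or 91, 2 genes passed without APOE3 mouse 63, and the smallest adjusted p over single omissions ran from 0.0249 to 0.125 (limma). With a spread shared by the 8 groups of the table, 0 genes passed either threshold. The 5 choroid plexus markers were all higher in these APOE4 males, 5 at an unadjusted p under 0.05, with sums of 30.3 to 833 CPM against 16 to 46.6 CPM in APOE3, and the 7 astrocyte markers were all lower, 2 of them at that p. All 7 endothelial markers were lower as well, 1 of them at that p. The microglia sums were 234 to 276 CPM against 255 to 272 CPM. The part of these markers in the result was not tested.

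Among males on nPM the differences were fewer, with 28 of 43 genes lower in APOE4, against 49.5% of all genes, at a median of -0.05 on the log2 scale. B2m was the only gene at 5% FDR, against 0.429% of all genes that were lower, and the only one at the unadjusted threshold of 0.005, against 1.29%. Under an unadjusted p of 0.05 were 5 genes, against 5.25% of all genes that were lower, namely B2m, H2-K1, H2-D1, Irf1 and Ifi35. H2-K1 was at 17.6, 14.9, 13.1 and 17.4 CPM with APOE3 and at 12.5, 13.4, 13.3 and 11.7 CPM with APOE4, with overlap (log2 difference -0.29 ± 0.09, limma, adjusted p = 0.306). Irf1 was at 4.32, 4.80, 4.87 and 4.77 CPM against 4.22, 3.5, 4.28 and 3.92 CPM, separate by a narrow margin (log2 difference -0.21 ± 0.08, limma, adjusted p = 0.421). B2m and Irf1 made up the 2 genes without overlap (4.65%, against 3.01% of all genes).

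APOE4 mouse 65 held the highest value of these males on nPM in many genes, as in Rsad2, at 1.21, 0.991, 3.40 and 0.937 CPM against 1.79, 1.48, 1.12 and 1.21 CPM in APOE3 males. Without it 37 of 43 genes were lower, 6 at the unadjusted threshold of 0.005, while B2m had an adjusted p of 0.0768 (limma). Without APOE3 mouse 58 or APOE4 mouse 33 the count at that threshold was 2. Shares of all genes under these omissions are not given here. The B2m call was lost also without APOE3 mouse 76 or APOE4 mouse 23, with the smallest adjusted p over single omissions between 0.0258 and 0.0806 (limma), and with the length slope as a covariate (adjusted p = 0.0545). The 7 endothelial markers were all lower in APOE4 males on nPM, 4 of them at the unadjusted threshold of 0.005, with sums of 97.4 to 115 CPM against 131 to 145 CPM. The part of these markers in the B2m result was not tested.

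Among females on filtered air 14 genes were higher and 29 lower in APOE4, against 50.3% of all genes that were lower, at a median of -0.14 on the log2 scale. None passed either threshold, against 0.304% of all genes at 5% FDR and 6.23% at the unadjusted threshold of 0.005. The 6 genes under an unadjusted p of 0.05, against 44.2% of all genes, were Adar and Stat2, which were higher, and Psme2, Psme1, Psmb10 and Samd9l, which were lower. Adar was at 99.7, 34.3, 92.4 and 49.2 CPM with APOE3 and at 146, 145, 133 and 142 CPM with APOE4, without overlap, as were 15.7% of all genes in that direction, at 1.16 on the log2 scale. With the length slope as a covariate Adar differed by 0.28, Stat2 by 0.28, Psme2 by -0.18, Psme1 by -0.18, Psmb10 by -0.01 and Samd9l by -0.20 on the log2 scale, and 0 genes were under an unadjusted p of 0.05. Without APOE4 mouse 21, 36 of 42 genes were lower at a median of -0.37 with 2 at the 0.005 threshold, and without APOE3 mouse 52 the count at 5% FDR was 8 and at 0.005 it was 4. Without APOE3 mouse 61 or 63 it was 1 at 0.005. The APOE3 females left without mouse 52 had length slopes of -0.590, -0.431 and -0.164. Shares of all genes in these refits are not given here, so the counts are no result about these genes in particular.

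**Figure D4:**
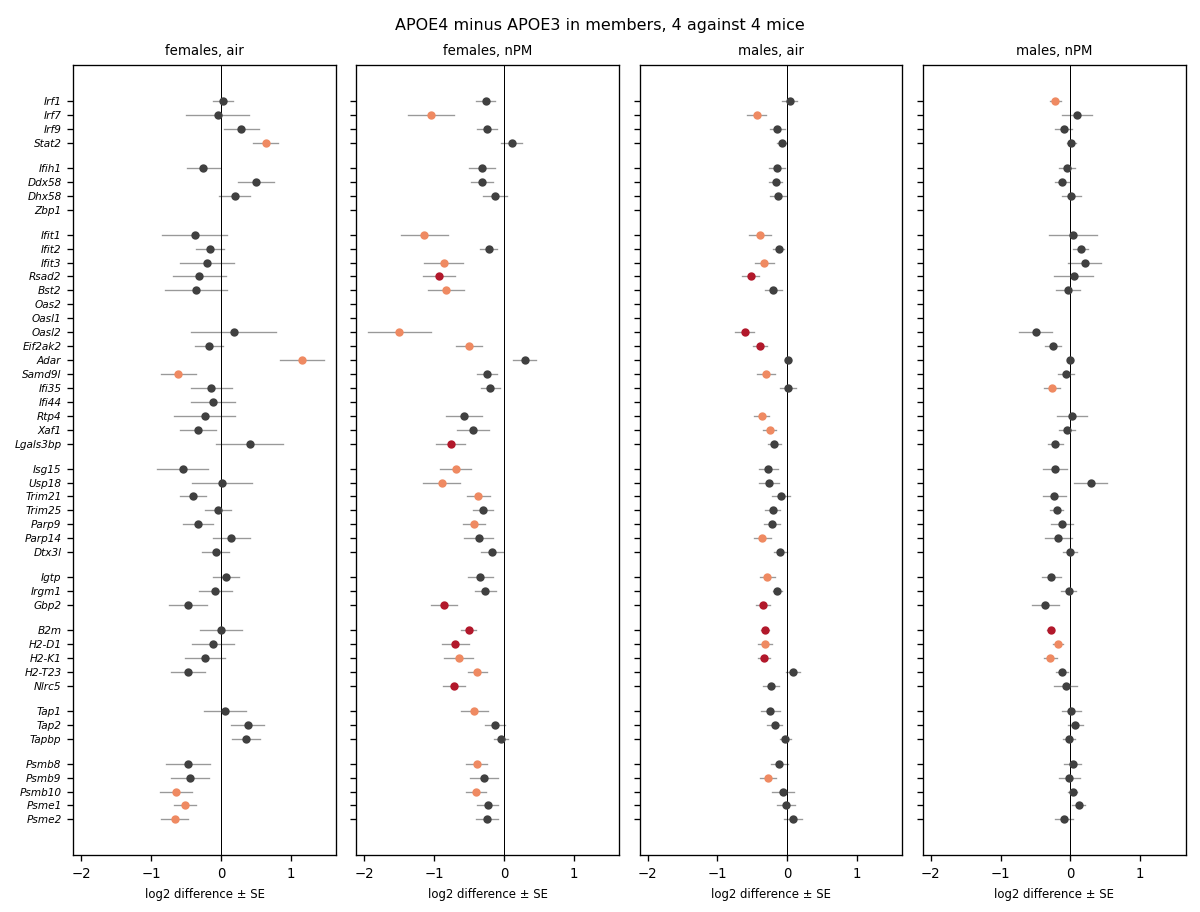
Differences between APOE4 and APOE3 (log2 of CPM + 0.5, with standard errors) for the tested genes in females and males on filtered air or nPM, with genes ordered by role. Orange points have an unadjusted p under 0.05, dark red points under 0.005 and grey points neither. Lower values in APOE4 fill the panels of females on nPM and males on filtered air, with 41 and 38 of 43 genes.

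The 20 genes described in full are followed here through the groups whose values are not given above, in the order of their roles, with mice in the order of the tables. Irf1, a factor induced by interferon gamma, differed between APOE4 and APOE3 by 0.03 in females on filtered air, -0.27 in females on nPM, 0.03 in males on filtered air and -0.21 in males on nPM, on the log2 scale. Irf1 in females on filtered air was at 4.02, 4.15, 3.36 and 4.08 CPM with APOE3 and at 3.5, 5.16, 3.43 and 4.01 CPM with APOE4, where the groups overlapped. Irf1 in females on nPM was at 4.15, 5.16, 4.10 and 3.74 CPM with APOE3 and at 2.79, 3.51, 3.53 and 4.14 CPM with APOE4, where the groups overlapped. Mean Irf1 CPM was lower in APOE4 in 2 of 4 strata. Irf1 in males on filtered air was at 4.38, 4.30, 3.61 and 4.31 CPM with APOE3 and at 4.67, 3.71, 3.79 and 4.93 CPM with APOE4, where the groups overlapped. Irf1 in B6 females was at 0.942, 1.66, 1.43 and 1.48 CPM on filtered air and at 2.34, 1.78, 1.67 and 1.56 CPM on nPM, overlapping, and in B6 males at 0.469, 0.978, 1.71 and 1.24 CPM and 1.33, 1.69, 2.74 and 2.02 CPM, overlapping. Irf7 differed between APOE4 and APOE3 by -0.04 in females on filtered air, -1.05 in females on nPM, -0.44 in males on filtered air and 0.09 in males on nPM, on the log2 scale. Irf7 in females on filtered air was at 2.77, 1.65, 0.699 and 0.524 CPM with APOE3 and at 0.774, 3.02, 0.738 and 0.882 CPM with APOE4, where the groups overlapped. Irf7 in males on nPM was at 1.70, 1.04, 0.948 and 0.982 CPM with APOE3 and at 0.921, 1.16, 2.25 and 0.937 CPM with APOE4, where the groups overlapped. Mean Irf7 CPM was lower in APOE4 in 3 of 4 strata. Irf7 in B6 females was at 1.23, 0.415, 2.16 and 0.664 CPM on filtered air and at 1.26, 2.0, 1.42 and 0.786 CPM on nPM, overlapping, and in B6 males at 2.03, 1.57, 1.87 and 1.74 CPM and 0.404, 0.550, 1.29 and 0.900 CPM, with every nPM mouse lower.

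Irf9, the DNA-binding part of the complex that type I interferon activates, differed between APOE4 and APOE3 by 0.29 in females on filtered air, -0.24 in females on nPM, -0.14 in males on filtered air and -0.10 in males on nPM, on the log2 scale. Irf9 in females on filtered air was at 8.44, 5.40, 4.47 and 4.98 CPM with APOE3 and at 4.91, 10.3, 7.38 and 6.48 CPM with APOE4, where the groups overlapped. Irf9 in females on nPM was at 7.14, 7.66, 8.91 and 5.59 CPM with APOE3 and at 7.32, 5.69, 5.85 and 5.41 CPM with APOE4, where the groups overlapped. Mean Irf9 CPM was lower in APOE4 in 3 of 4 strata. Irf9 in males on filtered air was at 6.94, 7.03, 6.87 and 6.44 CPM with APOE3 and at 6.08, 7.73, 5.00 and 6.02 CPM with APOE4, where the groups overlapped. Irf9 in males on nPM was at 6.89, 7.81, 6.33 and 9.76 CPM with APOE3 and at 6.88, 6.42, 8.20 and 6.91 CPM with APOE4, where the groups overlapped. Irf9 in B6 females was at 2.24, 1.97, 1.62 and 3.42 CPM on filtered air and at 7.48, 2.34, 1.8 and 4.17 CPM on nPM, overlapping, and in B6 males at 9.64, 2.14, 4.55 and 9.94 CPM and 3.27, 3.17, 1.23 and 4.38 CPM, overlapping. Stat2, its partner in that complex, differed between APOE4 and APOE3 by 0.64 in females on filtered air, 0.11 in females on nPM, -0.08 in males on filtered air and 0.01 in males on nPM, on the log2 scale. Stat2 in females on filtered air was at 14.1, 7.82, 12.1 and 11.7 CPM with APOE3 and at 15.0, 20.3, 16.9 and 19.1 CPM with APOE4, where all APOE4 mice were higher. Stat2 in females on nPM was at 13.4, 19.4, 19.5 and 12.3 CPM with APOE3 and at 16.6, 17.9, 17.3 and 16.7 CPM with APOE4, where the groups overlapped. Mean Stat2 CPM was lower in APOE4 in 1 of 4 strata. Stat2 in males on filtered air was at 20.2, 19.9, 20.0 and 18.7 CPM with APOE3 and at 18.8, 17.9, 20.1 and 17.7 CPM with APOE4, where the groups overlapped. Stat2 in males on nPM was at 18.5, 18.9, 20.4 and 20.4 CPM with APOE3 and at 19.6, 17.5, 21.2 and 20.8 CPM with APOE4, where the groups overlapped. Stat2 in B6 females was at 6.17, 7.08, 9.64 and 7.27 CPM on filtered air and at 8.24, 6.80, 11.6 and 6.44 CPM on nPM, overlapping, and in B6 males at 7.30, 5.12, 10.2 and 2.35 CPM and 8.19, 6.36, 10.8 and 8.27 CPM, overlapping.

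Ifit1, which binds viral RNA that lacks host cap methylation, differed between APOE4 and APOE3 by -0.38 in females on filtered air, -1.14 in females on nPM, -0.39 in males on filtered air and 0.03 in males on nPM, on the log2 scale. Ifit1 in females on filtered air was at 8.05, 6.12, 1.82 and 3.48 CPM with APOE3 and at 3.60, 6.74, 1.96 and 2.01 CPM with APOE4, where the groups overlapped. Ifit1 in females on nPM was at 6.49, 6.82, 4.29 and 1.74 CPM with APOE3 and at 1.34, 1.90, 1.48 and 2.14 CPM with APOE4, where the groups overlapped. Mean Ifit1 CPM was lower in APOE4 in 3 of 4 strata. Ifit1 in males on filtered air was at 3.07, 2.89, 2.28 and 1.99 CPM with APOE3 and at 1.35, 2.18, 2.25 and 1.56 CPM with APOE4, where the groups overlapped. Ifit1 in males on nPM was at 3.8, 2.0, 2.71 and 1.74 CPM with APOE3 and at 1.91, 2.23, 6.31 and 1.38 CPM with APOE4, where the groups overlapped. Ifit1 in B6 females was at 1.52, 2.46, 3.52 and 2.74 CPM on filtered air and at 3.77, 0.0383, 2.40 and 1.86 CPM on nPM, overlapping, and in B6 males at 0.0448, 2.26, 2.68 and 2.98 CPM and 1.24, 1.01, 3.60 and 0.904 CPM, overlapping. Ifit3, a partner of Ifit1, differed between APOE4 and APOE3 by -0.19 in females on filtered air, -0.87 in females on nPM, -0.33 in males on filtered air and 0.20 in males on nPM, on the log2 scale. Ifit3 in females on filtered air was at 24.3, 16.4, 8.49 and 11.4 CPM with APOE3 and at 10.2, 24.5, 9.49 and 9.24 CPM with APOE4, where the groups overlapped. Ifit3 in females on nPM was at 18.7, 22.3, 14.7 and 8.02 CPM with APOE3 and at 6.38, 6.73, 8.98 and 10.4 CPM with APOE4, where the groups overlapped. Mean Ifit3 CPM was lower in APOE4 in 3 of 4 strata. Ifit3 in males on filtered air was at 9.80, 10.4, 6.93 and 8.54 CPM with APOE3 and at 6.75, 5.92, 8.51 and 6.75 CPM with APOE4, where the groups overlapped. Ifit3 in males on nPM was at 11.8, 8.6, 8.09 and 7.04 CPM with APOE3 and at 7.73, 9.72, 17.9 and 7.73 CPM with APOE4, where the groups overlapped. Ifit3 in B6 females was at 5.79, 6.67, 5.27 and 5.78 CPM on filtered air and at 5.98, 2.99, 5.39 and 6.86 CPM on nPM, overlapping, and in B6 males at 2.01, 5.24, 5.69 and 3.23 CPM and 3.28, 6.71, 7.25 and 6.20 CPM, overlapping.

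Bst2 differed between APOE4 and APOE3 by -0.36 in females on filtered air, -0.83 in females on nPM, -0.20 in males on filtered air and -0.03 in males on nPM, on the log2 scale. Bst2 in females on filtered air was at 3.87, 3.44, 0.944 and 1.87 CPM with APOE3 and at 1.68, 3.91, 0.866 and 1.16 CPM with APOE4, where the groups overlapped. Bst2 in females on nPM was at 2.52, 3.79, 1.98 and 1.09 CPM with APOE3 and at 0.839, 1.07, 1.11 and 1.02 CPM with APOE4, where the groups overlapped. Mean Bst2 CPM was lower in APOE4 in 4 of 4 strata. Bst2 in males on filtered air was at 0.804, 1.14, 1.07 and 1.2 CPM with APOE3 and at 0.729, 0.889, 0.749 and 1.04 CPM with APOE4, where the groups overlapped. Bst2 in males on nPM was at 1.64, 0.865, 0.860 and 1.07 CPM with APOE3 and at 0.727, 1.32, 1.23 and 0.966 CPM with APOE4, where the groups overlapped. Bst2 in B6 females was at 0.303, 0.443, 0.514 and 0.0980 CPM on filtered air and at 0.280, 0.0383, 2.24 and 0.233 CPM on nPM, overlapping, and in B6 males at 0.0448, 0.596, 1.93 and 0.249 CPM and 2.84, 1.93, 1.32 and 1.29 CPM, overlapping. Rsad2 differed between APOE4 and APOE3 by -0.31 in females on filtered air, -0.93 in females on nPM, -0.52 in males on filtered air and 0.05 in males on nPM, on the log2 scale. Rsad2 in females on filtered air was at 2.42, 1.12, 1.05 and 0.712 CPM with APOE3 and at 1.04, 2.07, 0.353 and 0.608 CPM with APOE4, where the groups overlapped. Rsad2 in B6 females was at 0.854, 0.358, 0.0429 and 1.46 CPM on filtered air and at 0.0350, 0.0383, 0.352 and 2.66 CPM on nPM, overlapping, and in B6 males at 3.56, 1.28, 0.187 and 0.249 CPM and 0.0797, 0.913, 0.907 and 0.129 CPM, overlapping.

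Oasl2 differed between APOE4 and APOE3 by 0.18 in females on filtered air, -1.5 in females on nPM, -0.61 in males on filtered air and -0.50 in males on nPM, on the log2 scale. Oasl2 in females on filtered air was at 6.72, 1.70, 0.839 and 0.749 CPM with APOE3 and at 1.58, 5.65, 1.35 and 1.37 CPM with APOE4, where the groups overlapped. Oasl2 in males on nPM was at 3.75, 2.30, 1.98 and 2.38 CPM with APOE3 and at 1.45, 1.35, 3.12 and 1.14 CPM with APOE4, where the groups overlapped. Mean Oasl2 CPM was lower in APOE4 in 4 of 4 strata, but in females on filtered air the means were nearly equal and the log2 difference was of the opposite sign. Oasl2 in B6 females was at 1.93, 1.34, 6.69 and 0.686 CPM on filtered air and at 4.96, 2.91, 4.67 and 1.98 CPM on nPM, overlapping, and in B6 males at 0.761, 2.97, 4.09 and 1.12 CPM and 1.06, 2.80, 2.06 and 1.23 CPM, overlapping. Eif2ak2 differed between APOE4 and APOE3 by -0.17 in females on filtered air, -0.50 in females on nPM, -0.40 in males on filtered air and -0.25 in males on nPM, on the log2 scale. Eif2ak2 in females on filtered air was at 5.82, 5.58, 3.88 and 6.33 CPM with APOE3 and at 4.47, 6.61, 4.30 and 3.74 CPM with APOE4, where the groups overlapped. Eif2ak2 in females on nPM was at 7.78, 6.46, 4.33 and 3.96 CPM with APOE3 and at 3.49, 3.40, 3.87 and 4.03 CPM with APOE4, where the groups overlapped. Mean Eif2ak2 CPM was lower in APOE4 in 4 of 4 strata. Eif2ak2 in males on nPM was at 5.24, 5.19, 5.36 and 5.27 CPM with APOE3 and at 4.46, 4.19, 5.60 and 3.43 CPM with APOE4, where the groups overlapped. Eif2ak2 in B6 females was at 1.59, 2.52, 0.729 and 3.03 CPM on filtered air and at 0.0350, 0.0383, 3.34 and 3.47 CPM on nPM, overlapping, and in B6 males at 1.43, 1.91, 0.423 and 5.97 CPM and 0.680, 2.40, 1.62 and 4.15 CPM, overlapping.

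Isg15 differed between APOE4 and APOE3 by -0.55 in females on filtered air, -0.69 in females on nPM, -0.27 in males on filtered air and -0.22 in males on nPM, on the log2 scale. Isg15 in females on filtered air was at 3.44, 3.84, 1.40 and 1.87 CPM with APOE3 and at 1.38, 3.25, 0.962 and 1.13 CPM with APOE4, where the groups overlapped. Isg15 in females on nPM was at 2.31, 2.60, 1.79 and 1.05 CPM with APOE3 and at 1.28, 1.14, 0.807 and 0.689 CPM with APOE4, where the groups overlapped. Mean Isg15 CPM was lower in APOE4 in 4 of 4 strata. Isg15 in males on filtered air was at 1.01, 1.77, 1.36 and 1.04 CPM with APOE3 and at 1.03, 0.920, 0.926 and 0.991 CPM with APOE4, where the groups overlapped. Isg15 in males on nPM was at 1.58, 1.41, 1.41 and 1.43 CPM with APOE3 and at 0.775, 1.05, 1.94 and 1.17 CPM with APOE4, where the groups overlapped. Isg15 in B6 females was at 0.253, 0.0277, 0.0429 and 0.196 CPM on filtered air and at 0.0350, 0.0383, 0.118 and 0.581 CPM on nPM, overlapping, and in B6 males at 0.0448, 0.251, 0.0470 and 0.249 CPM and 0.280, 0.368, 0.355 and 0.129 CPM, overlapping. Parp9 differed between APOE4 and APOE3 by -0.33 in females on filtered air, -0.43 in females on nPM, -0.22 in males on filtered air and -0.12 in males on nPM, on the log2 scale. Parp9 in females on filtered air was at 3.96, 4.05, 2.83 and 3.43 CPM with APOE3 and at 2.22, 4.39, 2.18 and 2.44 CPM with APOE4, where the groups overlapped. Parp9 in females on nPM was at 4.36, 3.52, 2.90 and 2.35 CPM with APOE3 and at 2.16, 2.35, 2.32 and 2.18 CPM with APOE4, where the groups overlapped. Mean Parp9 CPM was lower in APOE4 in 4 of 4 strata. Parp9 in males on filtered air was at 3.23, 2.77, 2.81 and 3.05 CPM with APOE3 and at 1.94, 2.88, 2.69 and 2.45 CPM with APOE4, where the groups overlapped. Parp9 in males on nPM was at 2.72, 2.74, 3.00 and 2.74 CPM with APOE3 and at 1.76, 2.69, 3.64 and 2.35 CPM with APOE4, where the groups overlapped.

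Gbp2 differed between APOE4 and APOE3 by -0.47 in females on filtered air, -0.86 in females on nPM, -0.35 in males on filtered air and -0.36 in males on nPM, on the log2 scale. Gbp2 in females on filtered air was at 3.67, 4.20, 1.89 and 2.36 CPM with APOE3 and at 1.45, 3.22, 1.60 and 1.85 CPM with APOE4, where the groups overlapped. Gbp2 in males on nPM was at 2.22, 3.29, 2.80 and 2.41 CPM with APOE3 and at 1.43, 1.90, 3.26 and 1.58 CPM with APOE4, where the groups overlapped. Mean Gbp2 CPM was lower in APOE4 in 4 of 4 strata. Gbp2 in B6 females was at 3.66, 2.46, 9.09 and 4.12 CPM on filtered air and at 9.72, 11, 3.62 and 1.28 CPM on nPM, overlapping, and in B6 males at 2.95, 0.878, 2.73 and 2.13 CPM and 0.0400, 2.57, 2.99 and 1.09 CPM, overlapping. Igtp differed between APOE4 and APOE3 by 0.07 in females on filtered air, -0.34 in females on nPM, -0.29 in males on filtered air and -0.27 in males on nPM, on the log2 scale. Igtp in females on filtered air was at 5.70, 7.50, 5.00 and 5.47 CPM with APOE3 and at 4.91, 8.22, 6.54 and 5.5 CPM with APOE4, where the groups overlapped. Igtp in females on nPM was at 6.49, 6.99, 5.56 and 5.19 CPM with APOE3 and at 3.19, 5.29, 4.57 and 5.99 CPM with APOE4, where the groups overlapped. Mean Igtp CPM was lower in APOE4 in 3 of 4 strata. Igtp in males on filtered air was at 5.57, 5.78, 6.96 and 4.99 CPM with APOE3 and at 5.29, 4.35, 4.28 and 4.74 CPM with APOE4, where the groups overlapped. Igtp in males on nPM was at 5.45, 5.83, 6.66 and 5.92 CPM with APOE3 and at 4.70, 3.77, 6.64 and 4.60 CPM with APOE4, where the groups overlapped. Igtp in B6 females was at 2.31, 2.01, 2.05 and 4.53 CPM on filtered air and at 3.23, 10.9, 3.05 and 3.75 CPM on nPM, overlapping, and in B6 males at 5.59, 2.32, 3.08 and 3.23 CPM and 1.44, 2.71, 4.56 and 2.20 CPM, overlapping.

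B2m differed between APOE4 and APOE3 by -0.00 in females on filtered air, -0.51 in females on nPM, -0.32 in males on filtered air and -0.28 in males on nPM, on the log2 scale. B2m in B6 females was at 156, 150, 228 and 153 CPM on filtered air and at 158, 184, 140 and 98.0 CPM on nPM, overlapping, and in B6 males at 159, 110, 176 and 94.3 CPM and 139, 118, 146 and 94.6 CPM, overlapping. H2-D1 differed between APOE4 and APOE3 by -0.12 in females on filtered air, -0.70 in females on nPM, -0.32 in males on filtered air and -0.18 in males on nPM, on the log2 scale. H2-D1 in females on filtered air was at 41.5, 32.5, 23 and 28.9 CPM with APOE3 and at 22.0, 53.3, 24.1 and 22.8 CPM with APOE4, where the groups overlapped. H2-D1 in males on filtered air was at 25.3, 25.8, 18.7 and 24.5 CPM with APOE3 and at 20.4, 17.3, 18.6 and 18.5 CPM with APOE4, where the groups overlapped. Mean H2-D1 CPM was lower in APOE4 in 4 of 4 strata. H2-D1 in males on nPM was at 25.2, 22.1, 21.4 and 22.7 CPM with APOE3 and at 19.4, 22.5, 19.8 and 18.6 CPM with APOE4, where the groups overlapped. H2-D1 in B6 females was at 12.1, 7.89, 15.1 and 16.3 CPM on filtered air and at 13.2, 5.29, 16.6 and 11.5 CPM on nPM, overlapping, and in B6 males at 9.35, 11.6, 10.3 and 11.9 CPM and 17.2, 11.3, 13.6 and 11.4 CPM, overlapping.

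H2-K1 differed between APOE4 and APOE3 by -0.22 in females on filtered air, -0.65 in females on nPM, -0.33 in males on filtered air and -0.29 in males on nPM, on the log2 scale. H2-K1 in females on filtered air was at 30.9, 26.6, 17.1 and 20.7 CPM with APOE3 and at 17.1, 35.4, 15.4 and 16.5 CPM with APOE4, where the groups overlapped. H2-K1 in females on nPM was at 24.0, 30.6, 18.2 and 13.8 CPM with APOE3 and at 11.9, 14.3, 12.3 and 13.9 CPM with APOE4, where the groups overlapped. Mean H2-K1 CPM was lower in APOE4 in 4 of 4 strata. H2-K1 in B6 females was at 7.87, 7.07, 12.4 and 11.1 CPM on filtered air and at 11.9, 20.1, 17.1 and 13.4 CPM on nPM, overlapping, and in B6 males at 15.6, 13.2, 11.3 and 6.63 CPM and 11.7, 5.98, 8.67 and 7.02 CPM, overlapping. Nlrc5 differed between APOE4 and APOE3 by -0.72 in females on nPM, -0.23 in males on filtered air and -0.07 in males on nPM (filtered air females not tested), on the log2 scale. Nlrc5 in females on filtered air was at 0.859, 0.447, 0.280 and 0.150 CPM with APOE3 and at 0.303, 1.15, 0.385 and 0.426 CPM with APOE4, where the groups overlapped. Nlrc5 in males on filtered air was at 0.625, 0.705, 0.622 and 0.476 CPM with APOE3 and at 0.459, 0.460, 0.375 and 0.472 CPM with APOE4, where all APOE4 mice were lower. Mean Nlrc5 CPM was lower in APOE4 in 3 of 4 strata. Nlrc5 in males on nPM was at 0.720, 0.494, 0.441 and 0.813 CPM with APOE3 and at 0.339, 0.468, 0.828 and 0.644 CPM with APOE4, where the groups overlapped. Nlrc5 in B6 females was at 0.560, 0.839, 0.0429 and 0.151 CPM on filtered air and at 1.87, 0.0383, 0.253 and 0.698 CPM on nPM, overlapping, and in B6 males at 0.0448, 0.0994, 0.0940 and 0.249 CPM and 0.0617, 0.0919, 0.381 and 0.129 CPM, overlapping.

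Tap1 differed between APOE4 and APOE3 by 0.06 in females on filtered air, -0.43 in females on nPM, -0.24 in males on filtered air and 0.01 in males on nPM, on the log2 scale. Tap1 in females on filtered air was at 2.77, 1.34, 1.47 and 1.09 CPM with APOE3 and at 1.08, 3.12, 1.32 and 1.64 CPM with APOE4, where the groups overlapped. Tap1 in females on nPM was at 2.21, 2.46, 2.65 and 1.16 CPM with APOE3 and at 1.41, 1.40, 1.24 and 1.52 CPM with APOE4, where the groups overlapped. Mean Tap1 CPM was lower in APOE4 in 2 of 4 strata. Tap1 in males on filtered air was at 1.85, 1.71, 1.69 and 1.74 CPM with APOE3 and at 1.59, 1.04, 1.19 and 1.86 CPM with APOE4, where the groups overlapped. Tap1 in males on nPM was at 1.84, 1.51, 1.37 and 1.54 CPM with APOE3 and at 1.84, 1.49, 1.92 and 1.14 CPM with APOE4, where the groups overlapped. Tap1 in B6 females was at 1.27, 0.975, 0.327 and 1.27 CPM on filtered air and at 1.88, 0.0383, 1.64 and 1.01 CPM on nPM, overlapping, and in B6 males at 0.134, 0.627, 1.5 and 0.746 CPM and 0.259, 0.889, 0.490 and 1.68 CPM, overlapping. Psmb8, which replaces a constitutive proteasome subunit, differed between APOE4 and APOE3 by -0.47 in females on filtered air, -0.39 in females on nPM, -0.11 in males on filtered air and 0.03 in males on nPM, on the log2 scale. Psmb8 in females on filtered air was at 3.32, 3.75, 2.34 and 3.18 CPM with APOE3 and at 1.45, 4.67, 1.57 and 1.70 CPM with APOE4, where the groups overlapped. Psmb8 in females on nPM was at 2.82, 2.60, 1.83 and 1.85 CPM with APOE3 and at 1.75, 1.72, 1.28 and 1.63 CPM with APOE4, where all APOE4 mice were lower. Mean Psmb8 CPM was lower in APOE4 in 3 of 4 strata. Psmb8 in males on filtered air was at 1.82, 1.61, 1.36 and 1.85 CPM with APOE3 and at 1.76, 1.26, 1.39 and 1.58 CPM with APOE4, where the groups overlapped. Psmb8 in males on nPM was at 1.61, 1.88, 1.26 and 1.65 CPM with APOE3 and at 1.57, 1.51, 1.92 and 1.55 CPM with APOE4, where the groups overlapped. Psmb8 in B6 females was at 0.784, 0.0554, 0.171 and 0.784 CPM on filtered air and at 0.0350, 0.0383, 3.62 and 0.582 CPM on nPM, overlapping, and in B6 males at 1.88, 0.314, 1.13 and 0.249 CPM and 0.120, 0.792, 1.42 and 1.68 CPM, overlapping.

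The mean level of all tested genes in each mouse, relative to the mean of the table on the log2 scale, summarises these comparisons. In males on filtered air it lay between -0.01 and 0.07 in APOE3 and between -0.22 and -0.16 in APOE4 mice. In females on nPM it lay between -0.36 and -0.23 in APOE4 mice and at 0.49, 0.33, 0.14 and -0.23 in APOE3 mice 59, 55, 67 and 70. In males on nPM it lay between -0.21 and -0.11 in 3 of the 4 APOE4 mice and at 0.28 in mouse 65. In females on filtered air it was 0.71 in APOE4 mouse 21 and between -0.19 and -0.09 in its group mates, while APOE3 mice 52, 61, 6 and 63 had 0.51, 0.30, 0.06 and -0.17. APOE4 mouse 21 of females and mouse 65 of males thus lay far above their group mates. The alleles did not overlap in males on filtered air, nor in females on nPM, where APOE3 mouse 70 at -0.226 was just above the highest APOE4 mouse at -0.229.

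**Figure D5:**
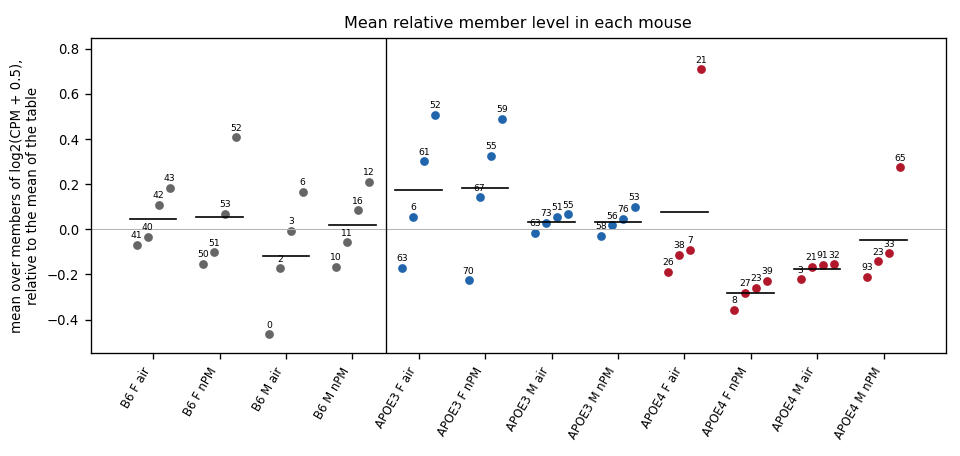
Mean relative level of the tested genes in each mouse (log2 scale, relative to the mean of its table), over 38 genes in B6 and 43 in APOE-TR mice, with 1 point per mouse labelled by its animal number and a line at the group mean. APOE4 female mouse 21 on filtered air is the highest point at 0.71, and APOE4 males on filtered air sit between -0.22 and -0.16, below the APOE3 males.

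Whether the nPM response differed between groups was tested directly. Between females and males, over all 12 groups, 31 of 42 genes had the more negative response in females, against 49.2% of all genes, at a median of -0.23 on the log2 scale beside 0.01 for all genes, with 0 at 5% FDR and 1 at the unadjusted threshold of 0.005, against 0% and 1.83% of all genes. That gene was Parp9, at -0.83 ± 0.23 (SE, limma, adjusted p = 0.221), whose B6 values are given above. In APOE-TR mice the Parp9 response was smaller, with group means of 3.56 ± 0.563 and 3.28 ± 0.862 CPM (SD) in APOE3 females on filtered air and nPM, 2.81 ± 1.06 and 2.25 ± 0.0966 in APOE4 females, 2.96 ± 0.218 and 2.80 ± 0.136 in APOE3 males and 2.49 ± 0.408 and 2.61 ± 0.786 in APOE4 males. With sample quality weights the median was 0.00 and 0 genes passed 0.005, and 2 and 3 passed without B6 male mouse 6 on filtered air and B6 female mouse 50 on nPM. Between APOE4 and APOE3 mice 32 of 43 genes had the more negative response in APOE4, against 50.7% of all genes, at a median of -0.13, with 0 at 5% FDR and 0 at 0.005, against 0% and 0.711% of all genes, and without APOE4 female mouse 21 the median was -0.01, while 2 genes passed 0.005 without APOE3 female mouse 52, both on filtered air.

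The wider pathway was followed in 43 further genes, of which 40 were listed in both tables and 34 tested over all mice. No interferon gene of the list (Ifnb1, Ifng and Ifna4) was tested. nPM called 0 of the 34 at the unadjusted threshold of 0.005, and 14 were higher and 20 lower. Between alleles 15 were higher and 19 lower over all mice, with 1 at that threshold, the guanylate-binding protein Gbp3 at -0.56. In females on nPM Gbp3 differed by -1.10, Iigp1, an immunity-related GTPase, by -1.17 and Ifi27 by -0.63, and in males on filtered air Gbp3 by -0.60, Iigp1 by -0.39 and Sp100, a nuclear body protein, by -0.50 on the log2 scale. These were all the pathway genes at the threshold in those comparisons. The 7 receptors and kinases were 4 higher and 3 lower over all mice with 0 under an unadjusted p of 0.05. All 5 MHC class II genes tested over all mice were higher in APOE4, with 0 under an unadjusted p of 0.05.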

How the data were processed

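Cortical RNA of 48 mice was sequenced by the authors as single-end, strand-marked libraries, and the submitters' processing notes name TopHat2 2.0.8b, Partek and build mm10 (GRCm38), with RefSeq genes in the study's methods. The deposited values are CPM made by the authors, in one table for B6 and one for APOE-TR mice, normalized separately. No value is 0, and the lowest value of each mouse was taken as a gene without reads. Of the low values checked, 96.1 to 97.1% in APOE-TR mice and 87.7 to 98.4% in B6 mice came out as whole reads within 0.1 of a read. 4 rows of repeated symbols per table were left out, and 1 column of the APOE3 females on filtered air, whose animal number matches no title, was used as a mouse of its group.

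The CPM were rescaled by TMM (edgeR 4.0.16), and log2 of CPM + 0.5 was fitted with limma 3.58.1 (trend, R 4.3.3) over all genes with a mean of at least 0.5 CPM in the mice of the fit, with Benjamini-Hochberg adjustment over all of them. Fits over 48 mice had terms for sex and genotype, and strata were fitted on their 8 mice. Calls were 5% FDR and, after the study, an unadjusted p under 0.005. Exact permutation tests of single genes were two-sided, over 70 labelings. The fitting steps were also run on simulated counts that held no length slopes or outlier mice. That run cannot show how such features affect the results here. Genes described in full were 15 chosen by name and up to 4 per direction and comparison with the smallest p under 0.005. The genes, lists and rules were chosen with earlier results of these data known. Replicates are labelled as separate mice. Markers of other cell types were summed in CPM.

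The alternatives were other pseudocounts (0.1 and 2), scalings, filters and sample weights, a shared spread, ComBat (sva 3.50.0), each table alone and each mouse left out. Chosen after seeing the data were the length slope of each mouse as a covariate (level on log2 length of the longest transcript), edgeR's quasi-likelihood test on recovered reads, single sexes, and omission of APOE4 female mouse 21 or of the APOE3 females on filtered air.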

Additional observations from a re-analysis of the deposited data

Results flagged for a closer look

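Within groups of 4, a mouse was singled out where its gap to the nearest of the others took up more than 0.83 of the group's range (Dixon's test), which chance does in about 1 in 20 groups. This held for 21 of 240 pairs of gene and group among the 20 genes described in full, 4 in B6 and 17 in APOE-TR groups. APOE4 female mouse 21 on filtered air accounted for 8 of them, always as the highest, with Irf7 at 3.02 CPM, Ifit3 at 24.5, B2m at 145, H2-D1 at 53.3, H2-K1 at 35.4, Psmb8 at 4.67, Oasl2 at 5.65 and Parp9 at 4.39 CPM. Its group mates had 0.738 to 0.882 CPM of Irf7, 9.24 to 10.2 of Ifit3, 54.4 to 57.8 of B2m, 22.0 to 24.1 of H2-D1, 15.4 to 17.1 of H2-K1, 1.45 to 1.70 of Psmb8, 1.35 to 1.58 of Oasl2 and 2.18 to 2.44 CPM of Parp9.

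In APOE3 males on filtered air Irf7 of mouse 73 was high at 1.54 CPM (others 1.04 to 1.07), and mouse 63 was low in H2-D1 at 18.7 CPM (others 24.5 to 25.8) and Irf1 at 3.61 CPM (others 4.30 to 4.38). In APOE3 males on nPM mouse 53 was high in Irf7 at 1.70 CPM (others 0.948 to 1.04) and Isg15 at 1.58 CPM (others 1.41 to 1.43), and mouse 58 in Parp9 at 3.00 CPM (others 2.72 to 2.74). Irf1 of APOE3 female mouse 63 on filtered air was low at 3.36 CPM (others 4.02 to 4.15), Psmb8 of APOE4 male mouse 65 on nPM was high at 1.92 CPM (others 1.51 to 1.57), and Nlrc5 of APOE4 male mouse 32 on filtered air was low at 0.375 CPM (others 0.459 to 0.472).

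In B6 mice Ifit1 of male mouse 0 on filtered air was at 0.0448 CPM, the value of genes without reads in that mouse, against 2.26 to 2.98 CPM in the others. B2m of female mouse 42 on filtered air was at 228 CPM (others 150 to 156), and Igtp was at 4.53 CPM in female mouse 43 on filtered air (others 2.01 to 2.31) and 10.9 CPM in female mouse 51 on nPM (others 3.05 to 3.75). The nPM response of Parp9 differed between females and males by -0.83 on the log2 scale (limma interaction term, adjusted p = 0.221), which failed the correction over all genes.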

How the results depend on the processing

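Over all mice nPM gave 0 genes at either threshold under every alternative run. The counts and medians below moved by more than 1.5 times or by more than the replicate spread, and the cause was not tested. Shares of all genes are given above for the main fits. At 5% FDR they are also given for the allele in APOE-TR mice alone and its alternatives chosen after seeing the data. For the other counts they are not given, so a higher count is not by itself a result about these genes. For APOE4 against APOE3 over all mice, with 0 genes at 5% FDR and 1 at an unadjusted p under 0.005, the counts were 10 and 12 with sample quality weights, 1 and 7 with ComBat, 4 and 8 in APOE-TR mice alone, and at the second threshold 3 without rescaling and 0 with a pseudocount of 0.1, with genes above the lowest value in every mouse or with the length covariate. Alternatives chosen after seeing the data, in APOE-TR mice, gave 2 and 5 without the 4 APOE3 females on filtered air, 15 and 17 omitting APOE4 female mouse 21, 4 and 6 in males, 10 and 5 in females, 3 and 3 by edgeR and 2 and 3 with the length covariate. Leaving out single mice gave 0 to 1 and 0 to 5. In females on filtered air both counts were 0, and were 7 and 5 with sample weights and 12 and 6 with a shared spread, the second being 1 with a pseudocount of 2, no rescaling, median-of-ratios or the every-mouse filter, and single mice gave 0 to 8 and 0 to 4. In females on nPM (0 and 6) sample weights gave 2 and 14, edgeR 11 at the second threshold, and single mice 0 to 5 and 3 to 17. In males on filtered air (1 and 6) the second count was 10 with sample weights, both were 0 with a shared spread, the first was 2 with the length covariate and 0 to 2 over single mice, and the median was -0.25 with a pseudocount of 0.1, -0.12 with 2 and -0.25 by edgeR. In males on nPM (1 and 1) the second count was 2 without a filter or with the every-mouse filter, both were 0 with a shared spread, they were 0 and 3 with the length covariate, and single mice gave 0 to 1 and 1 to 6. For nPM in APOE3 females (0 and 0) sample weights gave 1 and 1, a shared spread 6 and 4, and single mice up to 1 at the second threshold. For nPM in APOE4 females a shared spread and single mice gave up to 1 there, and the length covariate a median of 0.0223. For the nPM response of females against males (0 and 1) the second count was 0 and the median 0.0143 with the every-mouse filter, 0 and 0.00332 with sample weights, and single mice gave 1 to 3. For that of APOE4 against APOE3 single mice gave 0 to 2.

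No paired analysis was possible because the numbers in the labels are those of single animals and pair no mice across groups. At 17.8 M to 31.3 M reads in APOE-TR mice, genes such as Nlrc5 rested on 3 to 34 reads per mouse and Irf7 on 8 to 94. In B6 mice, with 2.08 M to 24.4 M, 28 of the 47 genes were without reads in at least 1 mouse, and the part of depth in this was not tested. Exposure length, age and genotype cannot be told apart between B6 and APOE-TR mice. With 4 mice per group, 1 animal can set a call.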
